A study of Arabidopsis thaliana with 12 samples.

Results

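Gibberellin signalling in Arabidopsis runs through 10 genes described here: the 5 DELLA repressors GAI (AT1G14920), RGA (AT2G01570), RGL1 (AT1G66350), RGL2 (AT3G03450) and RGL3 (AT5G17490), the 3 gibberellin receptors GID1A (AT3G05120), GID1B (AT3G63010) and GID1C (AT5G27320), and the F-box proteins SLY1 (AT4G24210) and SNE (AT5G48170). They were chosen by name as the known core of the pathway, with earlier results of these data known, and they are 10 of 33602 listed genes. RNA was sequenced from whole seedlings of wild-type Columbia 0. The seedlings had grown for 3 days at 22 °C, in light periods of 10 h under white light (100 µmol m-2 s-1; red to far-red ratio 1.1). On day 4 they spent the 10 h light period in 1 of 4 conditions and were collected at its end: shade at 28 or 20 °C, or white light at 28 or 20 °C, each with 3 biological replicates. White light at 20 °C served as the condition with neither shade nor warmth. The red to far-red ratio and the light level of the shade treatment are not given in the sources used here.

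DELLA proteins are nuclear regulators of the GRAS family that hold back growth by binding transcription factors, among them the phytochrome-interacting factors. Gibberellin enters a GID1 receptor, the loaded receptor grips the N-terminal part of a DELLA protein, and an SCF ubiquitin ligase that carries SLY1 marks the DELLA protein for breakdown. SNE is the closest relative of SLY1 and can stand in for it when made in excess. In seedlings, elongation of the hypocotyl under shade or warmth is known to need gibberellin and the removal of DELLA proteins. The data here are transcript levels, and protein levels were not measured.

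The DELLA genes are named for 5 codons near the start of the protein, in the part that a loaded GID1 receptor grips. The coding strand around these codons is shown because it is the feature that joins the repressors to the receptors. Each stretch below has 51 bases from the RefSeq annotation of build TAIR10.1, with the 15 bases of the 5 codons in capitals. The submitters' processing notes name TAIR10.
GAI: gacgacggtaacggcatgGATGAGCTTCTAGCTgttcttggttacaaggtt
RGA: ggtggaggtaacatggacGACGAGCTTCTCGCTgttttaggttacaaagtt
RGL1: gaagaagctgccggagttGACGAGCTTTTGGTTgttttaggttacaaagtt
RGL2: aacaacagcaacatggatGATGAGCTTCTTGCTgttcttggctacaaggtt
RGL3: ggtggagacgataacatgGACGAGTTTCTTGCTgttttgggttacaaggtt
The stretches lie at chr1:5149477-5149527 on the plus strand for GAI, chr2:257183-257233 on the minus strand for RGA, chr1:24748402-24748452 on the plus strand for RGL1, chr3:821118-821168 on the minus strand for RGL2 and chr5:5765756-5765806 on the minus strand for RGL3. The capitals start at codon 28 in GAI, 44 in RGA, 32 in RGL1, 44 in RGL2 and 34 in RGL3. Of the 15 capitals in GAI, 14 were the same in RGL2, 13 in RGA, 12 in RGL3 and 11 in RGL1. GAI, RGA and RGL2 hold codons for the full motif, whereas RGL1 and RGL3 do not, and for these the window shown is the in-frame one most like that of GAI. Each of the 5 DELLA genes, SLY1 and SNE is annotated with 1 exon, and each GID1 gene with 2. No member overlaps another annotated gene. The longest run of identical bases was 30 between GAI and RGA transcripts and 35 between GID1A and GID1C.

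Library totals ranged from 3500325 to 4481869 reads over genes, so 1 CPM, a read number scaled to the library total, stood for 3.5 to 4.48 reads. A gene was tested when at least 3 libraries had a log2 CPM of at least 0, which kept 21316 genes and all 10 members. Changes were called at a limma adjusted p under 0.05 over all tested genes. Markers of green tissue summed to 7450 to 12300 CPM in shade at 28 °C, 12900 to 14700 CPM in shade at 20 °C, 10100 to 14900 CPM in white light at 28 °C and 19800 to 20600 CPM in white light at 20 °C. Root hair markers summed to 95 to 189 CPM over all libraries, flower markers had 0 to 3 reads, and dry seed markers ranged from 0.905 to 179 CPM. 18S ribosomal RNA took 0.535 to 2.35% of reads. In whole seedlings, fewer cells of a type and less RNA per cell cannot be told apart.

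Per kb of transcript, RGA had the highest level of the 10 genes, with a mean log2 CPM per kb of 5.38 over the 12 libraries. GAI followed at 4.38, GID1A at 4.27, SLY1 at 4.15, GID1B at 4.04 and GID1C at 3.57. RGL1 was at 2.21, RGL2 at 1.43, RGL3 at 0.87 and SNE at 0.48 on the same scale. Neighbours in this order often overlapped: GAI spanned 3.41 to 5.07 and GID1A 3.99 to 4.65 log2 CPM per kb, and SLY1 spanned 3.75 to 4.50 and GID1B 3.65 to 4.30. RGA did not fall below 5.12 in any library, above the highest GAI library at 5.07. SNE rested on 2 to 14 reads per library and RGL3 on 7 to 34, so their levels carry the largest counting error. RGL2 had 16 to 38 reads and RGL1 18 to 52.

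**Figure D1:**
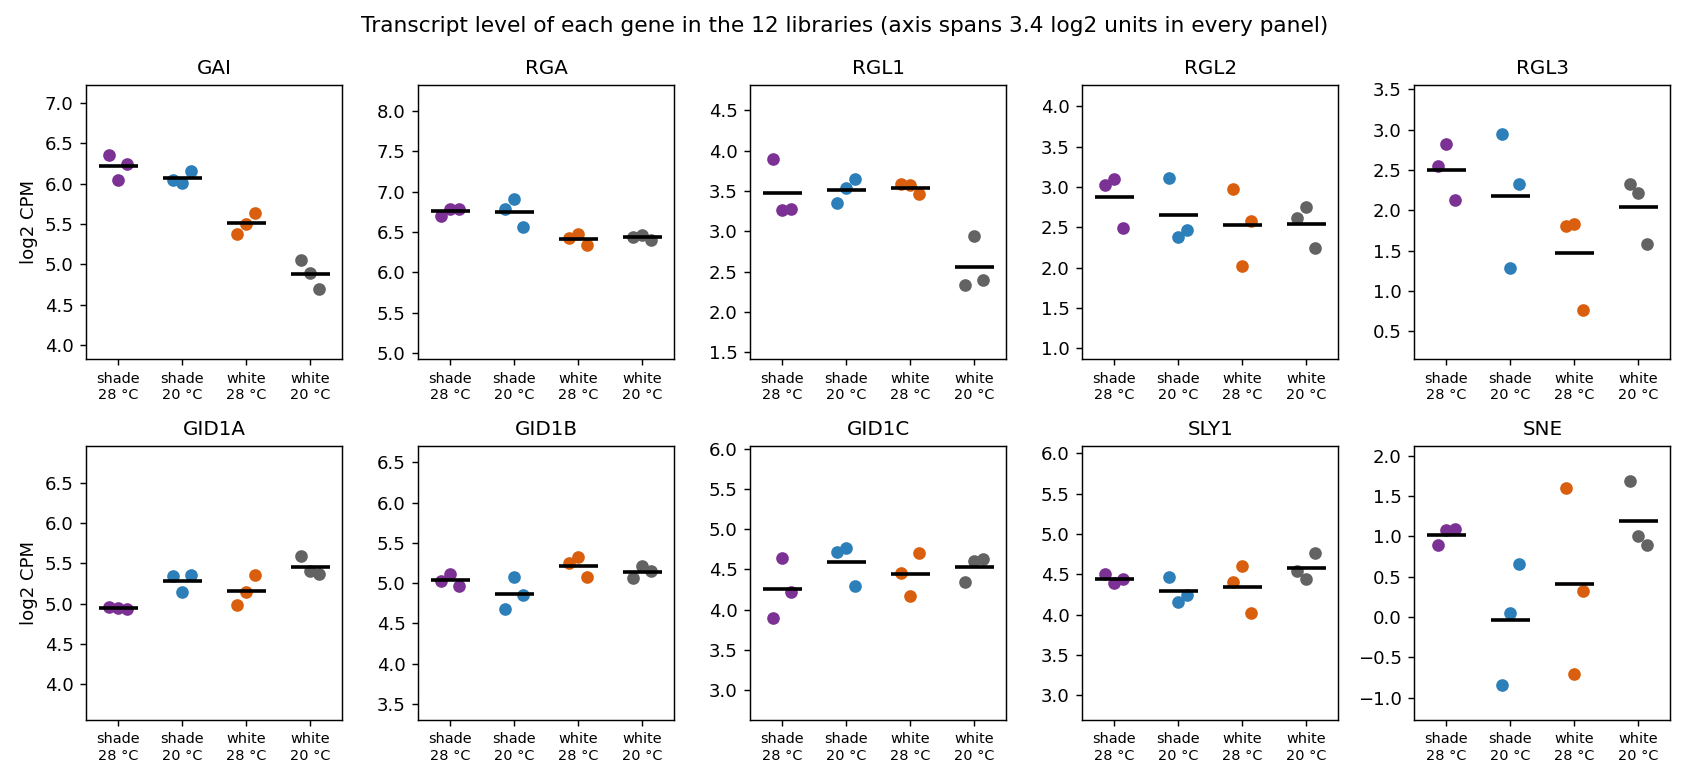
Transcript level of each of the 10 genes as log2 CPM (vertical axis) in the 4 conditions, with 1 point per library and a bar at the mean of 3. GAI falls into steps, with all 6 shade libraries above all 6 white light libraries, while RGL1 is low only in white light at 20 °C and the points of SNE are scattered.

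Shade with warmth, against neither, asked how the pathway stood when both cues were present. GAI, RGA and RGL1 rose and GID1A fell, so 4 of 10 members (40.0%) were called, where 22.3% of all tested genes were called. The median log2 change was 0.11 over the members and 0.16 over all tested genes. The called changes were therefore higher for 3 DELLA genes and lower for 1 receptor. RGL2, RGL3, GID1B, GID1C, SLY1 and SNE did not pass the test.

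GAI had the largest rise among the members called. It was at 6.36, 6.04 and 6.24 log2 CPM in shade at 28 °C, 6.04, 6.01 and 6.16 in shade at 20 °C, 5.38, 5.50 and 5.64 in white light at 28 °C, and 5.05, 4.89 and 4.69 in white light at 20 °C. The 6 shade libraries stood above all 6 white light libraries, and within white light all 3 warm libraries stood above all 3 at 20 °C. Only the 2 shade conditions overlapped. With both cues GAI rose 2.52-fold, by 1.33 ± 0.13 on the log2 scale (limma adjusted p = 1.13e-08; SE over n = 3 each). The call held under all 17 alternative settings, with log2 changes of 1.18 to 1.43. Green marker sums were highest in white light at 20 °C, at 19800 to 20600 CPM, where GAI was lowest. They were 7450 to 12300 CPM in shade at 28 °C, where the GAI mean was highest. White light at 28 °C overlapped each shade condition in these sums. The part of the green marker sums in the GAI values was not tested.

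RGA, the DELLA gene with the most reads, was at 6.70, 6.79 and 6.79 log2 CPM in shade at 28 °C, 6.79, 6.91 and 6.56 in shade at 20 °C, 6.43, 6.48 and 6.34 in white light at 28 °C, and 6.44, 6.46 and 6.40 in white light at 20 °C. Shade libraries were again above every white light library, but by a small margin, and the 2 temperatures overlapped within each light condition. RGA rose 1.25-fold with both cues, by 0.32 ± 0.10 (limma adjusted p = 0.0257; SE over n = 3 each). This call was lost in 9 of 17 alternatives, among them subtracting library medians (0.17, adjusted p = 0.302), and leaving out any 1 of the white light 20 °C libraries or shade 28 °C replicate 2 or 3 gave adjusted p = 0.0506 to 0.076.

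RGL1, a DELLA gene with lower levels, was at 3.90, 3.26 and 3.27 log2 CPM in shade at 28 °C, 3.35, 3.54 and 3.65 in shade at 20 °C, 3.58, 3.57 and 3.46 in white light at 28 °C, and 2.33, 2.94 and 2.40 in white light at 20 °C. The 3 conditions with a cue overlapped each other and all stood above white light at 20 °C. The green marker sums set apart the same condition, at most 14900 CPM in the 3 conditions with a cue against 19800 to 20600 CPM in white light at 20 °C, and their part in the RGL1 values was not tested. RGL1 rose 1.89-fold with both cues, by 0.92 ± 0.27 (limma adjusted p = 0.0142; SE over n = 3 each). Without white light 20 °C replicate 1 the change was 0.80 (adjusted p = 0.0583), without shade 28 °C replicate 1 it was 0.70 (adjusted p = 0.0955), and after quantile normalization it was 0.75 (adjusted p = 0.0557).

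Of the receptors, GID1A was at 4.96, 4.95 and 4.93 log2 CPM in shade at 28 °C, 5.34, 5.15 and 5.35 in shade at 20 °C, 4.98, 5.15 and 5.36 in white light at 28 °C, and 5.59, 5.40 and 5.37 in white light at 20 °C. The libraries with both cues were the 3 lowest and those with neither the 3 highest. Green marker sums were 7450 to 12300 CPM with both cues and 19800 to 20600 CPM with neither. Their part in the GID1A values was not tested. GID1A fell to 0.704 of its level in white light at 20 °C, which is -0.51 ± 0.14 on the log2 scale (limma adjusted p = 0.00804; SE over n = 3 each), and the call held under all 17 alternatives. GID1B ranged from 4.68 to 5.33 log2 CPM and GID1C from 3.90 to 4.77 over all libraries. With both cues their log2 changes were -0.11 ± 0.14 and -0.27 ± 0.20 (limma adjusted p = 0.653 and 0.37), and the groups overlapped.

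The F-box genes were not called in any comparison. SLY1, the F-box protein that recruits DELLA proteins to the SCF ligase, ranged from 4.02 to 4.77 log2 CPM, and its log2 change with both cues was -0.14 (95% interval -0.51 to 0.23). SNE was at 0.89, 1.08 and 1.09 log2 CPM in shade at 28 °C, -0.84, 0.05 and 0.66 in shade at 20 °C, 1.60, -0.71 and 0.32 in white light at 28 °C, and 1.69, 1.01 and 0.89 in white light at 20 °C. Its interval with both cues was -1.57 to 1.21, and changes of 2-fold in either direction lay inside it. The interval of RGL2 was -0.38 to 1.05 and that of RGL3 -0.48 to 1.40.

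Shade alone, against white light at 20 °C, called 2 of 10 members (20.0%), where 8.09% of all tested genes were called. GAI rose 2.28-fold, by 1.19 ± 0.13 (limma adjusted p = 2.03e-07; SE over n = 3 each), and RGL1 rose 1.94-fold, by 0.96 ± 0.27 (limma adjusted p = 0.0243). RGA had a log2 change of 0.32 (95% interval 0.10 to 0.53) with an adjusted p of 0.0589, and it was called with the stricter filter on low values (adjusted p = 0.0498, for 3 members called) and without shade 20 °C replicate 3 (0.41, adjusted p = 0.0253). The median log2 change of the members was 0.09, and that of all tested genes 0.05. The RGL1 call was lost without white light 20 °C replicate 1 (0.84, adjusted p = 0.0966) or 3 (0.88, adjusted p = 0.0815), and without shade 20 °C replicate 2 (0.94, adjusted p = 0.0672) or 3 (0.89, adjusted p = 0.107).

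Warmth in white light also called 2 of 10 members (20.0%), where 15.6% of all tested genes were called. GAI rose 1.55-fold, by 0.63 ± 0.13 (limma adjusted p = 0.00114; SE over n = 3 each), and RGL1 rose 1.97-fold, by 0.98 ± 0.27 (limma adjusted p = 0.0131). RGA did not move beyond its spread, with a log2 change of -0.02 (95% interval -0.23 to 0.20). The members' median was -0.05, against 0.16 for all tested genes. For GID1A the log2 change was -0.29 (limma adjusted p = 0.163), and this became -0.44 (adjusted p = 0.0293) when library medians were subtracted and -0.42 (adjusted p = 0.0393) after quantile normalization. The RGL1 call was lost without white light 20 °C replicate 1 (0.87, adjusted p = 0.0532) and after quantile normalization (0.80, adjusted p = 0.0566). The contrasts of both cues, shade alone and warmth alone share the white light 20 °C libraries, so their values are not independent.

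At 28 °C, shade called 1 of 10 members (10.0%), where 4.59% of all tested genes were called. This was GAI, which rose 1.63-fold, by 0.71 ± 0.13 (limma adjusted p = 0.00079; SE over n = 3 each). RGA had a log2 change of 0.34 with an adjusted p of 0.0593. RGL3, a DELLA gene at low level, was at 2.55, 2.82 and 2.13 log2 CPM in shade at 28 °C, against 1.81, 1.83 and 0.76 in white light at 28 °C. The groups did not overlap, but the change of 1.03 ± 0.46 (SE, n = 3 each) had a limma adjusted p of 0.26. Median log2 changes were 0.22 for the members and -0.02 for all tested genes.

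Warmth under shade called 0 of 10 members with limma, where 4.18% of all tested genes were called. Only GID1A had an unadjusted limma p under 0.05 (0.0215), at -0.33 ± 0.14 (SE over n = 3 each). It was not called (limma adjusted p = 0.198). GAI, which warmth raised in white light, had a log2 change of 0.14 under shade (95% interval -0.12 to 0.41). RGA stood at 0.01 (95% interval -0.21 to 0.22) and RGL1 at -0.04 (95% interval -0.59 to 0.52).

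The interaction, which asks whether the effect of shade at 28 °C differs from that at 20 °C, called 0 of 10 members, and 0.446% of all tested genes were called. GAI had an interaction of -0.49 ± 0.18 on the log2 scale (limma adjusted p = 0.336) and RGL1 one of -1.02 ± 0.38 (limma adjusted p = 0.334). A smaller effect of a second cue on GAI or RGL1 is therefore not shown by the test over all genes. RGA had an interaction of 0.02 (95% interval -0.28 to 0.33). SNE had one of 1.85, with an interval of -0.11 to 3.81.

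Shade alone, set directly against warmth alone, called 2 of 10 members (20.0%), where 7.85% of all tested genes were called. GAI was higher in shade at 20 °C than in white light at 28 °C, by 0.56 ± 0.13 (limma adjusted p = 0.00519; SE over n = 3 each), and RGA by 0.34 ± 0.10 (limma adjusted p = 0.045). RGL1 had a difference of -0.02 (95% interval -0.58 to 0.53). GID1B had a log2 change of -0.35 with an adjusted p of 0.15. The RGA call was lost in 9 of 17 alternatives, including the omission of any white light 28 °C replicate or of shade 20 °C replicate 1 or 2 (log2 changes of 0.26 to 0.37, adjusted p of 0.0744 to 0.218).

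**Figure D2:**
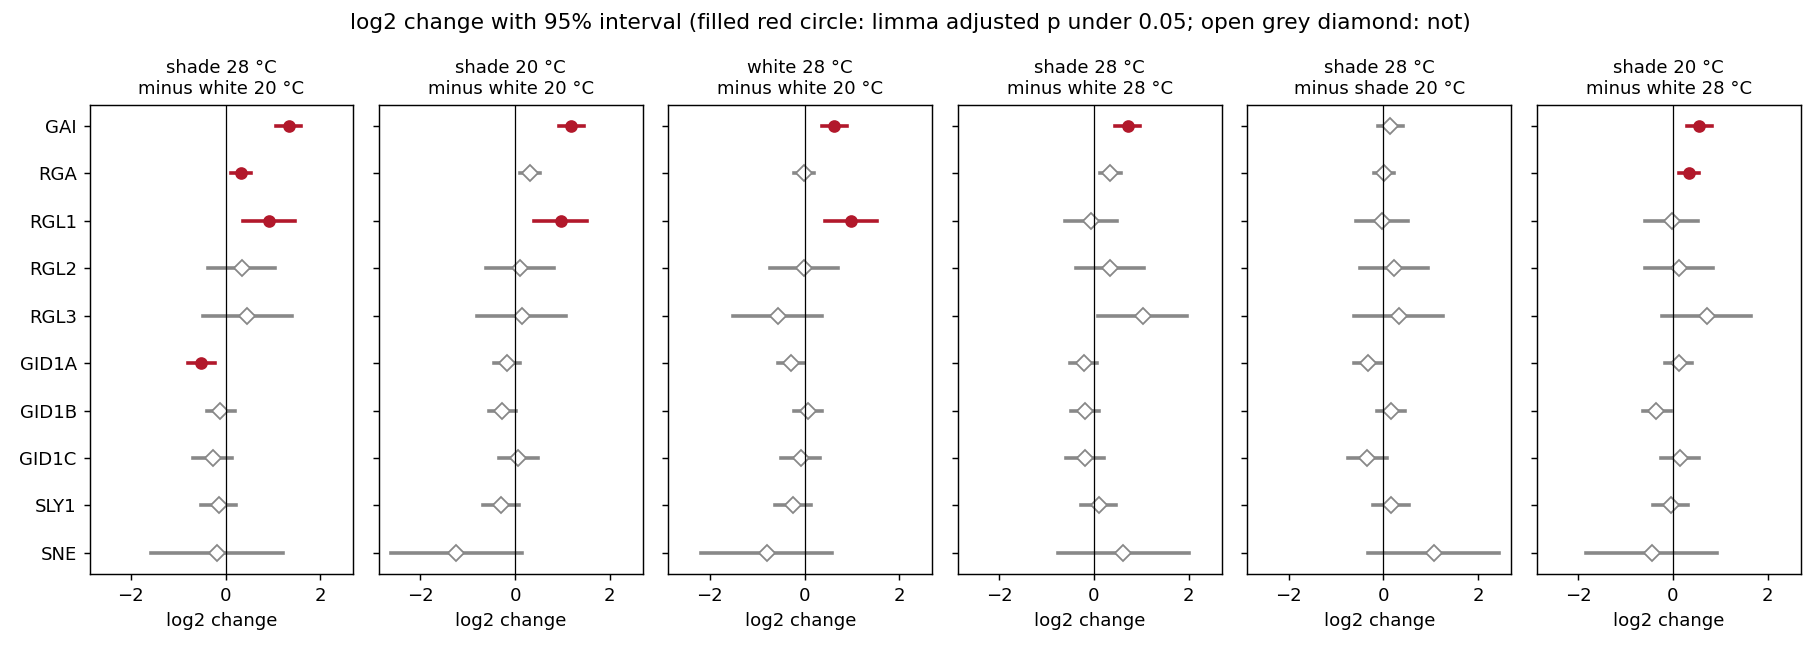
log2 change (horizontal axis) of each gene with its 95% interval in the 6 comparisons between 2 conditions, filled red where the limma adjusted p was under 0.05. GAI is filled in 5 of 6 panels, RGL1 in the 3 against white light at 20 °C, RGA in 2 and GID1A in 1.

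Added together per kb of transcript, the 5 DELLA genes had 91.5, 85.7 and 87.3 CPM per kb in shade at 28 °C, 86.6, 86.8 and 80.3 in shade at 20 °C, 64.6, 65.9 and 63.7 in white light at 28 °C, and 58.1, 58.5 and 52.7 in white light at 20 °C. The shade libraries did not overlap the white light libraries, and warm and cool white light did not overlap each other. For warmth in white light the median log2 change of all tested genes was 0.16. The part of that shift in the difference between warm and cool white light sums was not tested. GAI made up 34.6 ± 2.80%, 32.7 ± 3.24%, 28.9 ± 2.95% and 21.4 ± 1.74% of this sum in shade at 28 and 20 °C and in white light at 28 and 20 °C (SD, n = 3 each). RGA remained the largest part in every condition, at 52.9 ± 3.47%, 55.0 ± 4.45%, 56.8 ± 1.94% and 66.1 ± 2.66% in the same order. The 3 GID1 genes summed to 42.6 ± 3.36, 47.9 ± 1.93, 48.9 ± 2.68 and 52.6 ± 0.64 CPM per kb. These sums and shares are descriptions with no test.

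**Figure D3:**
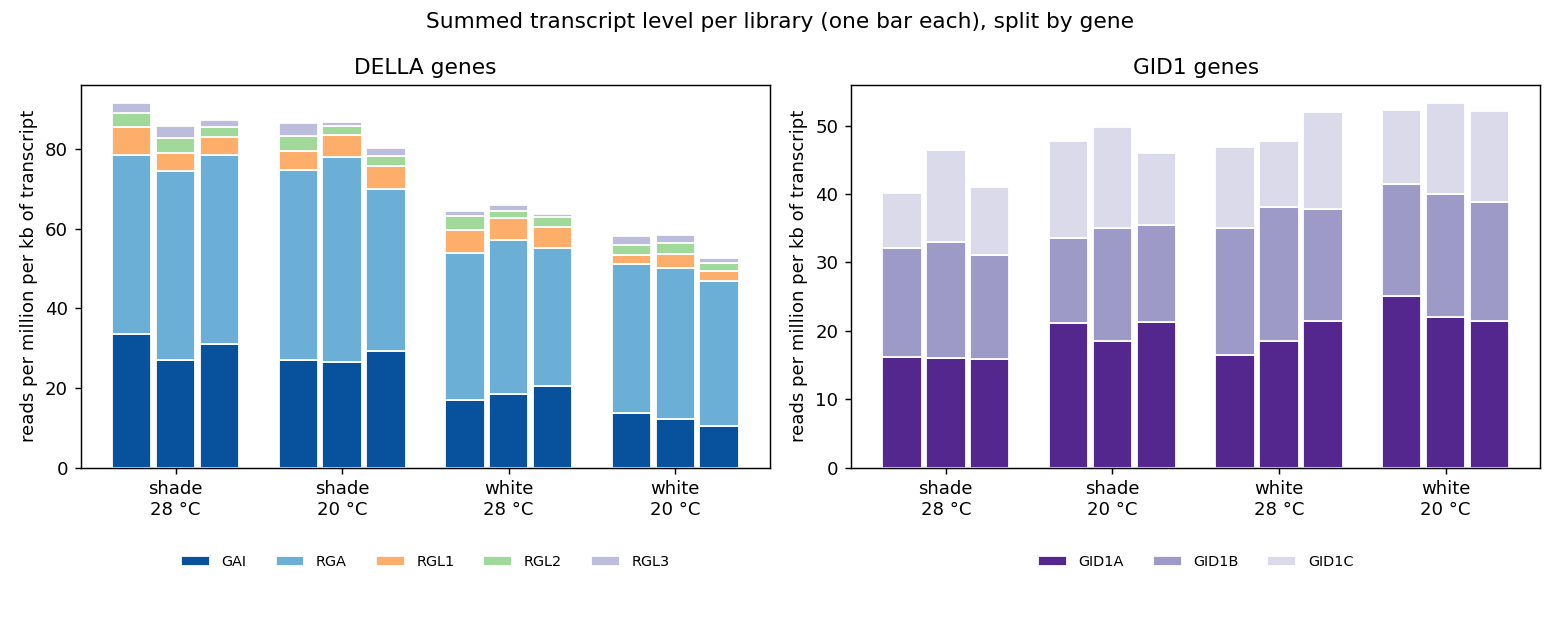
Summed transcript level in CPM per kb of transcript (vertical axis) of the DELLA genes (left) and the GID1 genes (right), with 1 bar per library and 1 colour per gene. In height, not in share of the sum, the GAI and RGA segments are both tallest in the shade bars. The DELLA sum lies between 80.3 and 91.5 in shade libraries and between 52.7 and 65.9 in white light libraries.

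The profile over the 12 libraries that lay closest to GAI was that of EXPA5, an expansin of the cell wall, with a root mean square difference of 0.136 log2 units after centring each gene on its mean. PIRL4, a leucine-rich repeat protein, came next at 0.148 and AT3G49220 after it at 0.153, among 18562 candidate genes. GAI itself had a root mean square deviation of 0.539 from its mean. For RGA the closest were AT2G04410 at 0.0482, AT3G14067 at 0.0909 and AT4G32240 at 0.0929. For RGL1 they were AT1G14730 at 0.189, SCPL34 at 0.195 and KCS16 at 0.206, and for GID1A they were ABCB26 at 0.0746, AT1G54410 at 0.0989 and ZML1 at 0.0999. These are descriptions over 12 libraries that share their conditions.

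Genes around the core were read from lists of known pathway members. Of 21 genes of gibberellin synthesis and inactivation, 14 were tested. With both cues 3 of the 14 (21.4%) were called, where 22.3% of all tested genes were, a share near that of all genes. These 3 rose: GA20OX1 (AT4G25420), an oxidase late in synthesis, by 1.41 ± 0.49 (limma adjusted p = 0.0376), GA3OX1 (AT1G15550), which makes the active hormone, by 0.84 ± 0.23 (limma adjusted p = 0.00927), and GA2OX6 (AT1G02400), which inactivates it, by 0.99 ± 0.25 (limma adjusted p = 0.00372). GA3OX1 was at 4.61, 4.32 and 4.76 log2 CPM in shade at 28 °C, 3.44, 2.66 and 3.81 in shade at 20 °C, 4.66, 4.97 and 4.70 in white light at 28 °C, and 3.73, 3.84 and 3.60 in white light at 20 °C. All 6 warm libraries stood above all 6 libraries at 20 °C. Warmth raised GA3OX1 by 1.05 ± 0.23 in white light (limma adjusted p = 0.0023) and by 1.26 ± 0.23 under shade (limma adjusted p = 0.00149). The call under shade was lost with a constant prior variance (limma adjusted p = 0.0612). In shade alone 1 of the 14 (7.14%) was called, against 8.09% of all tested genes: GA2OX6, which rose by 0.81 ± 0.25 (limma adjusted p = 0.038). That call was lost without white light 20 °C replicate 1 (0.55, adjusted p = 0.226), without any 1 of the shade 20 °C replicates (0.76 to 0.88, adjusted p of 0.0633 to 0.134), with a constant prior variance, without a filter and under both other scalings (adjusted p of 0.0528 to 0.157). With warmth in white light 2 of the 14 (14.3%) rose, against 15.6% of all tested genes called: GA3OX1 and GA3 (AT5G25900), an oxidase early in synthesis that was named after its values were seen. GA20OX2 and GA2OX2 did not pass the test in any comparison. With both cues GA20OX2 had a log2 change of 1.17 (95% interval 0.25 to 2.08, limma adjusted p = 0.0598). It was called there with robust empirical Bayes, with voom precision weights and without white light 20 °C replicate 3 (adjusted p of 0.0124 to 0.0451). With both cues, the GA20OX1 call was lost without any 1 of the white light 20 °C replicates (log2 changes of 1.38 to 1.43, adjusted p of 0.0733 to 0.0816). Without shade 28 °C replicate 1 or 2 it was lost too (1.14 and 1.48, adjusted p = 0.161 and 0.0723). The same held without a filter, under both other scalings and without the library with most 18S reads of each group (adjusted p of 0.0725 to 0.111). The GA3OX1 call with both cues was lost without shade 28 °C replicate 3 (0.74, adjusted p = 0.0547) and with a constant prior variance (adjusted p = 0.0517).

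Of 10 genes that DELLA proteins are known to induce, 2 (20.0%) rose and 0 fell with both cues, 0 were called in shade alone, and 2 (20.0%) rose with warmth in white light, where 22.3%, 8.09% and 15.6% of all tested genes were called. These were GA3OX1 and GA20OX1 for both cues, and GA3OX1 and XERICO (AT2G04240), a RING-type ubiquitin ligase, for warmth. XERICO rose by 0.92 ± 0.21 in white light at 28 °C (limma adjusted p = 0.00263), but was not called under a constant prior variance (adjusted p = 0.0601). SCL3 (AT1G50420), a GRAS protein, was at -0.38 ± 0.18 with both cues, -0.43 in shade alone and -0.42 with warmth (limma adjusted p of 0.138, 0.163 and 0.122). With library medians subtracted or quantile normalization it was called lower with both cues (-0.53 in each, adjusted p = 0.0365 and 0.0357) and with warmth (-0.57 and -0.58, adjusted p = 0.0344 and 0.0335), and the list then had 1 gene higher and 1 lower with both cues. The medians were 0.30 with both cues, -0.19 in shade alone and 0.18 with warmth, against 0.16, 0.05 and 0.16 for all tested genes. Of 11 modifiers and degradation partners, 2 rose and 1 fell with both cues, 0 were called in shade alone, and 1 rose and 1 fell with warmth. Their shares called, 27.3% with both cues and 18.2% with warmth, stood beside 22.3% and 15.6% of all tested genes. With library medians subtracted or quantile normalization, 0 rose and 1 fell in each. FKF1 (AT1G68050), an F-box protein of the flowering clock, fell by 0.81 on the log2 scale with warmth in white light (limma adjusted p = 3.69e-05). SPY (AT3G11540), an O-fucosyltransferase that modifies DELLA proteins, rose by 0.39 ± 0.13 there (limma adjusted p = 0.0382), a call lost without white light 20 °C replicate 1 or any white light 28 °C replicate (0.26 to 0.42, adjusted p of 0.0652 to 0.21). COP1 (AT2G32950), a ubiquitin ligase, was not called.

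Of 23 transcription regulators that DELLA proteins bind, 6 rose and 2 fell with both cues, 3 rose and 1 fell in shade alone, and 5 rose and 0 fell with warmth. The shares called were 34.8%, 17.4% and 21.7%, beside 22.3%, 8.09% and 15.6% of all tested genes. With library medians subtracted, 4 rose and 4 fell with both cues, and 2 rose and 2 fell in shade alone. PIF3 (AT1G09530), a phytochrome-interacting factor, rose by 0.80 with warmth in white light (limma adjusted p = 0.00062) and fell by 0.75 with shade at 28 °C (limma adjusted p = 0.00265), where the change was -0.49 (adjusted p = 0.147) without the library with most 18S reads of each group. PIF4 (AT2G43010) was not called in any comparison. Of the GASA family of gibberellin-responsive peptides, 8 of 15 genes were tested, and with both cues 6 rose and 1 fell, with a median of 1.56. In shade alone 5 rose and 1 fell, and with warmth 5 rose and 0 fell, with medians of 1.20 and 0.98. The medians of all tested genes were 0.16, 0.05 and 0.16, and the shares of the 8 called were 87.5%, 75.0% and 62.5%. With library medians subtracted, 4 rose and 1 fell with warmth. GASA6 (AT1G74670) was at 8.02, 8.22 and 7.77 log2 CPM in shade at 28 °C, 7.38, 7.24 and 7.43 in shade at 20 °C, 7.32, 7.81 and 7.59 in white light at 28 °C, and 5.59, 5.56 and 5.55 in white light at 20 °C. Every library with a cue stood above the 3 with neither, and GASA6 rose by 2.44 ± 0.12 with both (limma adjusted p = 3.35e-14).

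**Figure D4:**
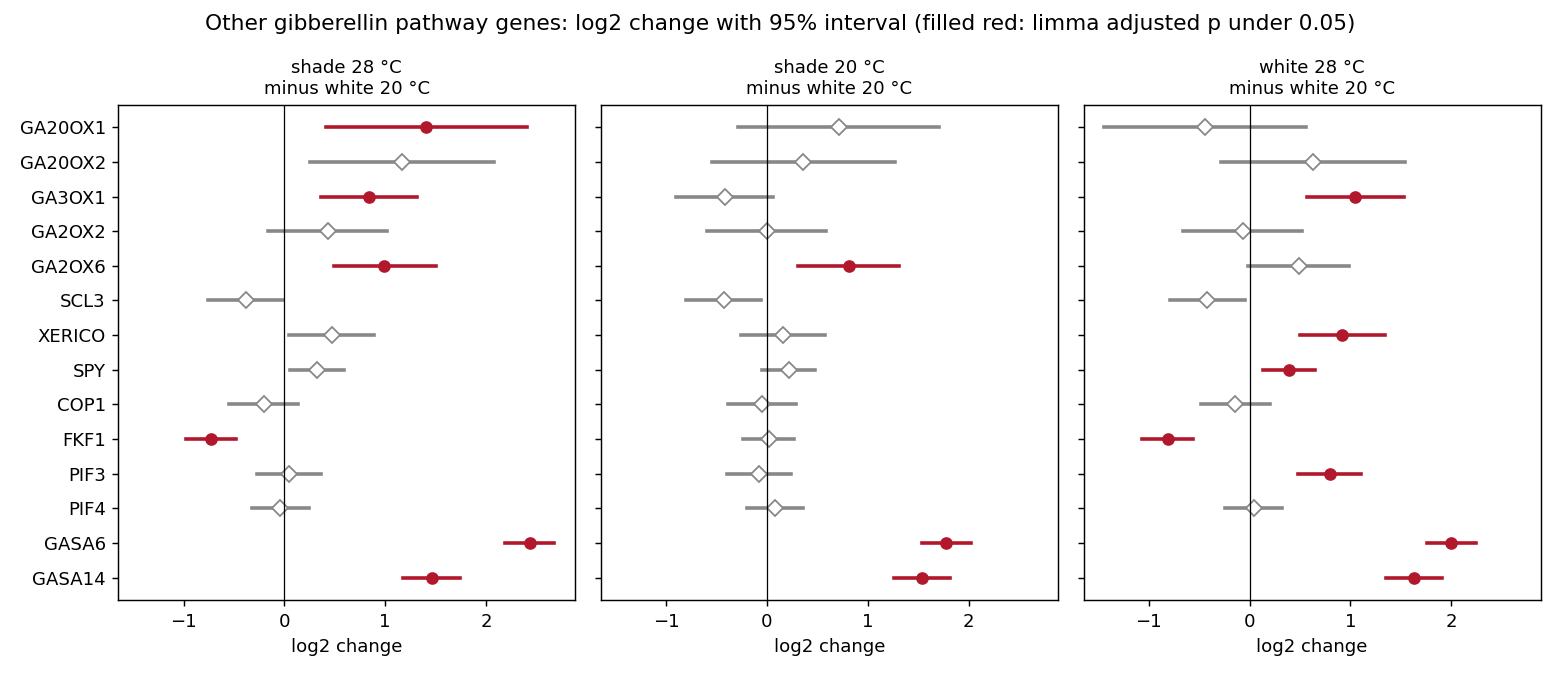
log2 change (horizontal axis) with its 95% interval for 14 genes around the gibberellin core, against white light at 20 °C, for both cues (left), shade alone (middle) and warmth alone (right), filled red where the limma adjusted p was under 0.05. GASA6 and GASA14 are filled in all 3 panels, and GA3OX1 and FKF1 in those with warmth.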

How the data were processed

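RNA was measured as polyA RNA-seq from whole seedlings in 12 libraries, 3 per condition. The values as deposited are not reads but in another unit: per the labels and the values, the authors gave log2 CPM on the voom scale, with 0.5 read added. Column headers reading ambient and heat were taken as 20 and 28 °C. Per the submitters' processing notes, R 4.0.2, limma, TopHat2 2.1.1 and SAMtools 1.3 appear with build TAIR10; their order and the counting tool are not given in the sources used here, and the kit was not stated to keep strand. Whole reads were recovered within 0.001 read.

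Genes were tested at a log2 value of 0 or more in at least 3 of 12 libraries (21316 of 33602; 12286 were not). The tests used limma 3.58.1 in R 4.3.3 on 4 group means (trended prior), with Benjamini-Hochberg adjustment over all tested genes, a threshold of 0.05 and 7 contrasts. Sequences and transcript lengths came from RefSeq TAIR10.1 with Python 3.11.15. The upstream windows of the members are not reported here. The 10 members, the gene lists and the 14 other named genes were chosen with earlier results of these data known; the 3 nearest profiles per called member were chosen by root mean square difference. The fit was tested on simulated data. Same-numbered libraries did not deviate together (r of -0.03 to 0.041 over 18 pairs), so no pairing was used. Library totals of 3500325 to 4481869 reads limit the precision of low genes.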

Additional observations from a re-analysis of the deposited data

Results flagged for a closer look

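GASA6 (AT1G74670) and GASA14 (AT5G14920), 2 peptides of the gibberellin-responsive GASA family, responded to shade differently at the 2 temperatures by the interaction term. GASA6 had an interaction of -1.35 ± 0.17 on the log2 scale (SE, n = 3 per condition; limma adjusted p = 4.72e-05), with shade effects of 0.43 at 28 °C and 1.78 at 20 °C. GASA14 had an interaction of -1.71 ± 0.19 (limma adjusted p = 1.47e-05), with shade effects of -0.17 at 28 °C and 1.54 at 20 °C. Mean log2 CPM of GASA14 was 8.62 in shade at 28 °C, 8.70 in shade at 20 °C, 8.79 in white light at 28 °C and 7.16 in white light at 20 °C. In both genes the condition with neither cue was the lowest of the 4. With a constant prior variance both had an adjusted p of 0.15.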

How the results depend on the processing

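GAI kept its 5 calls and GID1A its 1 under all 17 alternatives. RGA and RGL1 calls were sensitive to single libraries and to scaling. With both cues, 4 members were called, 2 after quantile normalization and 2 to 3 with 1 library left out. The range with 1 library left out was 1 to 2 for shade alone, for warmth in white light and for shade alone against warmth alone, each with 2 called. For shade at 28 °C, 1 member was called, and 2 with the stricter filter or with voom precision weights. For shade alone against warmth alone, 1 was called with a constant prior variance, without a filter, with only the compared groups, or without the library with most 18S reads of each group, an alternative chosen after seeing the data. The cause of these changes was not tested. With a replicate block the members called were as many in each comparison, and all genes called were 4815, 1809, 3428, 1043, 974, 1744 and 138, against 4755, 1724, 3333, 978, 892, 1673 and 95. The share of higher calls with both cues was 66.7%, 44.5% with library medians subtracted and 47.5% after quantile normalization. For warmth in white light it was 69.3%, 39.8% and 46.1%. For warmth under shade it was 52.4%, 25.1% and 39.4%, for shade alone against warmth alone 44.1%, 69.3% and 55.9%, and for the interaction 28.4%, 39.4% and 47.4%. For shade alone it was 67.2%, and 52.9% after quantile normalization. Counts over all genes fell by more than 1.5 times in several settings. With a constant prior variance they were 919 for shade alone, 1950 for warmth in white light, 357 for shade at 28 °C, 184 for warmth under shade, 802 for shade alone against warmth alone and 6 for the interaction. With no filter, 612, 370, 1057 and 40 genes were called in the last 4 of these. Without the libraries with most 18S reads, the counts were 3093 for both cues, 1665 for warmth in white light, 549 for shade at 28 °C, 347 for warmth under shade, 948 for shade alone against warmth alone and 42 for the interaction. With 1 library left out, shade alone reached a low of 1113 (without shade 20 °C replicate 3), warmth under shade 402 (without shade 20 °C replicate 2), and the interaction 59 (without shade 20 °C replicate 3) and a high of 155 (without white light 28 °C replicate 1). Among modifiers of DELLA proteins, 3 were called with both cues, but 1 with a constant prior variance, without a filter, with library medians subtracted or after quantile normalization. Count-based tools planned as alternatives were not run. SNE and RGL3 are limited by depth.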

Other observations

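Among the transcription regulators that DELLA proteins bind, some genes outside the naming rule stood out and were chosen after their values were seen. JKD (AT5G03150), a zinc finger protein known from root patterning, rose by 1.58 ± 0.13 (SE, here and below) on the log2 scale with both cues, against white light at 20 °C, by 1.28 in shade alone and by 1.01 with warmth in white light (limma adjusted p of 5.83e-10, 7.04e-08 and 3.67e-06). The RING proteins BRG3 (AT3G12920) and BRG2 (AT1G79110) moved in opposite directions with both cues, at 0.88 ± 0.14 and -0.63 ± 0.14 (limma adjusted p of 2.65e-05 and 0.00194). PIF7 (AT5G61270), a phytochrome-interacting factor of shade responses, fell by 0.91 ± 0.25 with both cues (limma adjusted p = 0.00983). In the GASA family, GASA1 (AT1G75750) rose by 1.62 ± 0.14 with both cues (limma adjusted p = 1.03e-09).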
